A study of Mus musculus with 19 samples.

Results

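The FLAG ChIP-seq experiment maps where an epitope-tagged STRA8 protein contacts chromatin in the mouse testis, and it rests on 12028 peak summits from 6 libraries. All summits deposited for the 6 FLAG ChIP libraries were taken, each with its position in the mm10 genome and its score, the −log10 p-value that the peak caller MACS2 gave to it. Of these, 11021 came from 3 Stra8 FLAG/FLAG mice and 1007 from 3 wild-type mice, and the 6 libraries are part of a series of 19 samples. The FLAG/FLAG males carried a FLAG tag inserted after the start codon of both Stra8 alleles, which marks only the longer STRA8 isoform, whereas the wild-type males carried no tag. Both groups were C57BL/6 (under 4% 129) and had spermatogenesis synchronized with WIN18,446, an inhibitor of retinoic acid synthesis, from postnatal day 2 to 8, followed by retinoic acid on day 9 and collection about 6.75 days later. Each library held chromatin of 1 whole, unsorted testis sample from 1 mouse, so preleptotene spermatocytes (the cells entering meiosis) were enriched but spermatogonia and somatic cells remained. Libraries with the same number were immunoprecipitated, prepared and sequenced in parallel. Pairs 1 and 2 used the TruSeq ChIP kit and pair 3 the Accel-NGS kit. The summits were also set beside RNA-seq of preleptotene cells sorted from C57BL/6 males that had the same treatment and collection time. These males also carried the alleles Ddx4-Cre and Rosa26-tdTomato, which label germ cells for sorting. The RNA groups were Stra8 knock-out (called Stra8-deficient, 3 libraries) and Stra8 heterozygous, with low STRA8 (2) or high STRA8 (2). The study places low STRA8 early in the preleptotene stage, before meiosis starts, and high STRA8 in its middle or late part, after the start. Between high-STRA8 and Stra8-deficient cells, genotype and progress through the stage thus cannot be told apart.

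STRA8 is induced by retinoic acid in germ cells and is required for the start of the meiotic cell cycle. In ChIP-seq, proteins are fixed to DNA, the chromatin is sheared, and an antibody pulls down the fragments that carry the protein. The summit is the base where such fragments pile up most against the input chromatin. Because wild-type mice express STRA8 with no FLAG epitope, summits in their libraries show where the FLAG antibody or the procedure recovers chromatin without the tag.

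The following windows of 100 bp lie at the highest-scoring FLAG/FLAG summit of the 3 genes with the highest mean promoter score, and of Stra8 and Dmc1, each written 5′ to 3′ on the strand of its gene. They come from the GRCm38.p6 (mm10) genome of RefSeq. Capitals mark matches to CNCCTCAG (N is any base), an 8-base motif searched on both strands, so that a match may appear as its reverse complement. The study derived this motif from summits of these same FLAG/FLAG libraries.
Iqsec1: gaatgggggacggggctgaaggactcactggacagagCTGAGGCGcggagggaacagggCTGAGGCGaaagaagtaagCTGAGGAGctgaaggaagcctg
Dip2c: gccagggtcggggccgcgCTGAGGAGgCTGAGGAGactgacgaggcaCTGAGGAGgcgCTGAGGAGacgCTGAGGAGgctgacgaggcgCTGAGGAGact
Sgpl1: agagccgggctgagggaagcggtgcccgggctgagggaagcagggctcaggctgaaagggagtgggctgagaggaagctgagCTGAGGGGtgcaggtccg
Stra8: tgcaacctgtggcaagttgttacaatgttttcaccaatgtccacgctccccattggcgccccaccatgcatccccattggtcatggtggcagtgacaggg
Dmc1: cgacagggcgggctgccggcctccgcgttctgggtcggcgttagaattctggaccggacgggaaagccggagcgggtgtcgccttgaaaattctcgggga

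The Iqsec1 window, chr6:90988984-90989083 on the minus strand, lies outside annotated transcripts, upstream of the transcription start site (TSS), and holds 3 matches. The Dip2c window, chr13:9276676-9276775 on the plus strand, overlaps an annotated exon of Dip2c and holds 6. The Sgpl1 window, chr10:61146950-61147049 on the minus strand, is intronic and holds 1 match. The Stra8 window, chr6:34920782-34920881 on the plus strand, and the Dmc1 window, chr15:79604982-79605081 on the minus strand, overlap annotated exons of these genes and hold none. For the wild-type libraries a pair of recurrent sites is shown. The recurrent wild-type site with the highest mean score, chr9:21950473-21950572, is intergenic and its nearest coding gene is Swsap1. A recurrent wild-type site in an intron of Npas4, chr19:4989120-4989219, carries the letters of the RE1 element, shown in capitals, the site that the neuronal repressor REST recognizes, and was picked after the wild-type sites had been seen. Both are given on the plus strand of the genome.
Near Swsap1: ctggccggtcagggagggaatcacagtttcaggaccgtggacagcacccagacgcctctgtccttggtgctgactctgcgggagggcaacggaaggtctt
Near Npas4: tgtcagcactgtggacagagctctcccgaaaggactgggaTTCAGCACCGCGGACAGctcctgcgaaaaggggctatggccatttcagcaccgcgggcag

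The question the comparison of genotypes addresses is how much of the FLAG signal depends on the tag. Many more summits were found with the tag than without it. The FLAG/FLAG libraries held 5687, 3299 and 2035 summits, and the wild-type libraries 798, 45 and 164. The lowest FLAG/FLAG library lay above the highest wild-type library, and within the pairs made in parallel the ratio was 7.13, 73.3 and 12.4. The means were 3674 ± 1855 (SD, n = 3) and 336 ± 405 (SD, n = 3), a difference of 3338 summits per library (two-sided exact permutation test, p = 0.1, the smallest p that 3 libraries against 3 can give). In all 7 measures were compared in this way, and the Benjamini-Hochberg adjusted value of this one was 0.14. The summit files hold no read numbers, so the sequencing depth behind each count is unknown, and its part in the number of summits per library was not tested.

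**Figure D1:**
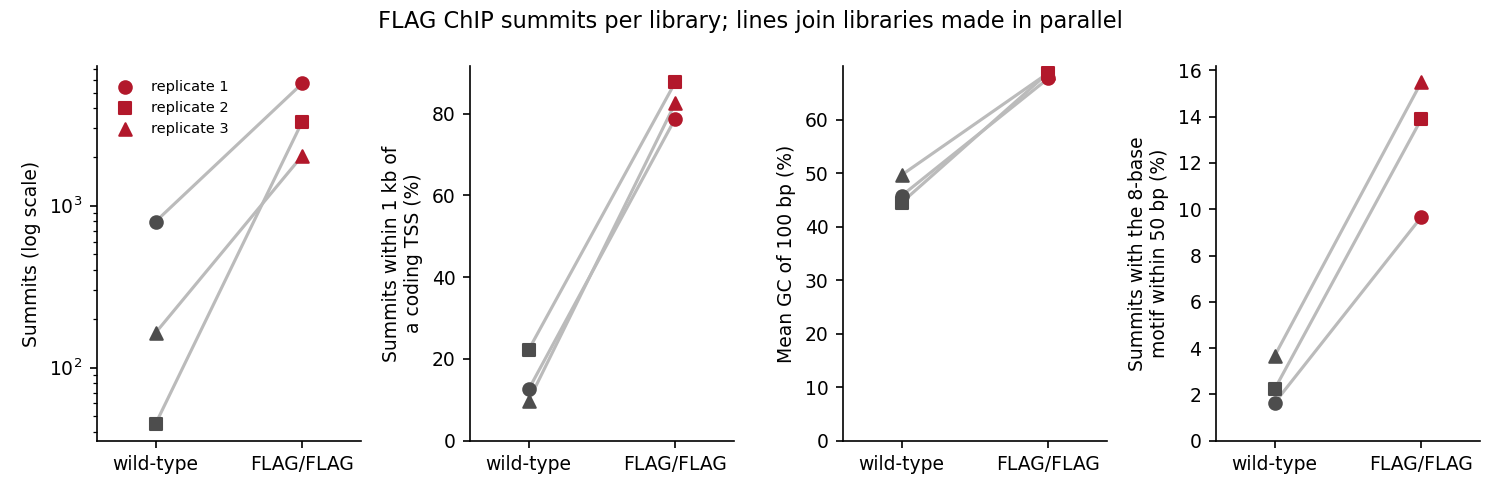
Each panel shows the 3 wild-type (grey) and 3 FLAG/FLAG (red) libraries, with a line joining the libraries made in parallel; from left to right the y axes give the number of summits on a log scale, the percent within 1 kb of a protein-coding TSS, the mean GC percent of the 100 bp at the summit, and the percent with the 8-base motif CNCCTCAG within 50 bp. In all 4 panels the 3 FLAG/FLAG libraries lie above the 3 wild-type libraries, with 5687, 3299 and 2035 against 798, 45 and 164 summits.

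FLAG/FLAG summits were at promoters. Of the summits of the 3 FLAG/FLAG libraries, 78.8%, 87.6% and 82.5% lay within 1 kb of the TSS of a protein-coding gene. Their 95% Wilson intervals, which cover counting error only, were 77.7 to 79.8, 86.5 to 88.7 and 80.8 to 84.1%. In the wild-type libraries the share was 12.5%, 22.2% and 9.76%, with intervals of 10.4 to 15.0, 12.5 to 36.3 and 6.09 to 15.3%. The groups did not overlap, and the means of 83.0% ± 4.45 and 14.8% ± 6.54 (SD, n = 3 each) differed by 68.1 percentage points (exact permutation p = 0.1, adjusted 0.14). Within the 3 pairs the difference was 66.2, 65.4 and 72.8 points. A further 4.64 to 4.96% of FLAG/FLAG summits lay within 1 kb of a noncoding or other annotated start, 2.67 to 6.84% were intronic and 3.88 to 8.48% intergenic. In the wild-type libraries introns held 33.3 to 39.0% of summits and intergenic sequence 17.8 to 50%.

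Around the start site the FLAG/FLAG summits formed a narrow peak just downstream of it. Among promoter summits the median position was 28, 32 and 17 bp downstream of the nearest TSS in the 3 libraries, with lower quartiles at −54, −61 and −91 bp, and 68.6 to 71.0% lay within 200 bp of it. Between 54.6 and 60.0% of promoter summits were downstream of it. Between 12.8 and 14.4% of promoter summits lay within 1 kb of the start sites of genes on opposite strands, so that such a summit counts for more than 1 gene. Pigp and Ttc3 are an example, for the same summit is the highest at both.

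**Figure D2:**
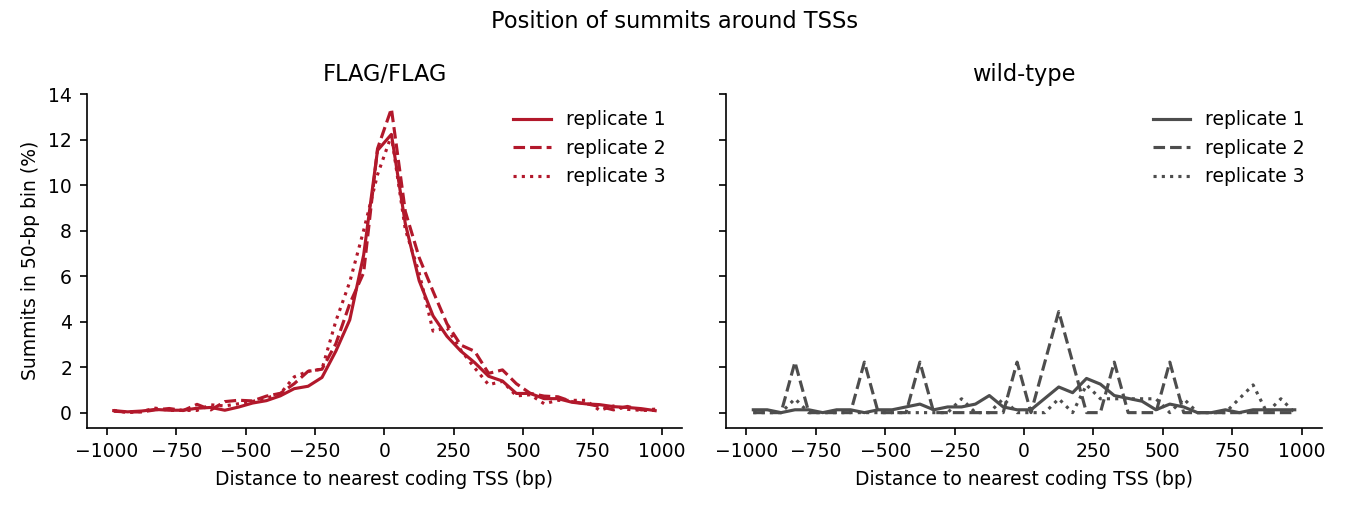
The x axis gives the distance of a summit from the nearest protein-coding TSS (positive is downstream) and the y axis the percent of a library's summits in each 50-bp bin, with 1 line for each replicate of the FLAG/FLAG (left) and wild-type (right) libraries. The 3 FLAG/FLAG lines rise to a common peak next to the TSS, with median positions of 28, 32 and 17 bp, while the wild-type lines stay low and uneven over 100, 10 and 16 promoter summits.

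The DNA at FLAG/FLAG summits was rich in G and C and in CpG. The 100 bp at the summit held 67.7%, 68.7% and 68.7% GC in the FLAG/FLAG libraries and 45.8%, 44.5% and 49.6% in the wild-type libraries. The means of 68.4% ± 0.596 and 46.6% ± 2.69 (SD, n = 3 each) did not overlap and differed by 21.7 percentage points (exact permutation p = 0.1, adjusted 0.14). The groups also differ in their share of promoter summits. At promoter summits alone GC was 71.4%, 69.5% and 70.1% with the tag. Without it GC there was 63.1%, 42.8% and 64%, over only 100, 10 and 16 summits. The ratio of observed to expected CpG over 200 bp, which is low where CpG has been lost through methylation, had a median of 0.882, 0.893 and 0.886 with the tag and 0.150, 0.570 and 0.149 without it. Repeat-masked bases made up 5.94 to 10.1% of the FLAG/FLAG windows and 25.5 to 38.9% of the wild-type windows.

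The scores of the summits did not separate the genotypes. The median score was 14.4, 13.5 and 13.98 in the FLAG/FLAG libraries and 11.2, 15.2 and 16.8 in the wild-type libraries, and the groups overlapped. The mean of the medians was 13.9 ± 0.463 with the tag and 14.4 ± 2.87 without it (SD, n = 3 each), a difference of −0.45 (exact permutation p = 0.8, adjusted 0.8). The sign differed among the pairs, with differences of 3.17, −1.73 and −2.80, and it turned when replicate 2 or 3 was left out. The highest scores reached 372, 288 and 281 in the FLAG/FLAG libraries and 264, 62.8 and 298 in the wild-type libraries.

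Part of the highest scores belonged to sites found without the tag. Over whole FLAG/FLAG libraries, 3.83%, 2.24% and 5.06% of summits lay within 100 bp of a wild-type summit. Among the 20 highest-scoring summits of each library the number was 5, 2 and 7, and among the highest 50 it was 10, 3 and 21. The site near Swsap1 scored 230, 123 and 281 in the FLAG/FLAG libraries and 264, 38.8 and 298 in the wild-type libraries. An intronic site on chromosome 12, whose nearest coding TSS is that of Dnajb9 at 1237350 bp, scored 208, 131 and 166 with the tag and 204, 30.2 and 181 without it. At both sites the score in pairs 1 and 3 was about as high without the tag as with it, and wild-type replicate 2 was the lowest of the 6. The 5 highest FLAG/FLAG sites over 1 kb from a coding TSS that recurred in all 3 libraries, near Swsap1, Igsf21, Dnajb9, Npas4 and Kcnk9, were all found in all 3 wild-type libraries as well.

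Summits chained within 100 bp of one another across the 6 libraries formed 8254 sites. Of the 885 sites with a wild-type summit, 776 were found in 1 wild-type library, 96 in 2 and 13 in all 3. All 13 were also present in all 3 FLAG/FLAG libraries, and of the 109 sites in 2 or 3 wild-type libraries 92 were found in at least 1 FLAG/FLAG library. Of those 109 sites 21.1% were at coding promoters. By the rule for named sites the 10 highest had as nearest coding start site, which can be far away, that of Swsap1, Dnajb9, Kcnk9, Npas4, Igsf21, Smim17, Camta1, Scrt1, Unc5a and Celf4. Of these sites only that of Scrt1 was within 1 kb of the coding TSS, and those of Camta1 and Celf4 lay 257000 and 85446 bp away from it. The RE1 letters occurred in the 100 bp of 10 of the 109 sites (9.17%) and of 3 of the 13 found in all 3. They occurred at 0 of 949 sites present in all 3 FLAG/FLAG and in no wild-type library, which allows a share of up to 0.316%, and in 1 of 41438 windows of the same length at coding start sites. Nothing about a factor follows from a match of letters.

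FLAG/FLAG sites recurred among the mice, and the strongest recurred most. Of the sites with no wild-type summit, 949 were found in all 3 FLAG/FLAG libraries, 1348 in 2 and 5072 in 1. Within 100 bp of a summit of another library of the same genotype lay 39.0%, 61.3% and 77.6% of FLAG/FLAG summits and 13.2%, 60.0% and 55.5% of wild-type summits. The groups overlapped, and the means of 59.3% ± 19.4 and 42.9% ± 25.8 (SD, n = 3 each) differed by 16.5 percentage points (exact permutation p = 0.4, adjusted 0.467). This share depends on how many summits the other libraries hold. Of the 500 highest-scoring summits of a FLAG/FLAG library, 75.6 to 86.0% had a summit of another given FLAG/FLAG library within 100 bp. Across the sites shared by a pair of libraries and absent from the wild type, the scores followed each other with a Spearman rho of 0.695 over 1767 sites, 0.653 over 1294 and 0.614 over 1134, given as a description, since all sites of a library share its depth. Sites found in more FLAG/FLAG libraries were also richer in the 8-base motif, at 6.70%, 13.2% and 21.5% for 1, 2 and 3 libraries.

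The 8-base motif CNCCTCAG lay under the FLAG/FLAG summits more often than under the wild-type summits. The study found this motif by a de novo search at summits of these same FLAG/FLAG libraries. The promoters searched were those of genes both bound and higher in the RNA-seq used here. Its excess at these summits was thus built into the choice of motif, and the values are a description. The other shares by motif given here are likewise no independent evidence. It was found within 50 bp of 9.65%, 13.9% and 15.5% of FLAG/FLAG summits, with Wilson intervals of 8.91 to 10.4, 12.7 to 15.1 and 13.97 to 17.1%. In the wild-type libraries the share was 1.63%, 2.22% and 3.66%, which is 13, 1 and 6 summits. The groups did not overlap, and the means of 13.0% ± 3.01 and 2.50% ± 1.04 (SD, n = 3 each) differed by 10.5 percentage points (exact permutation p = 0.1, adjusted 0.14). Windows of the same length at all 41438 coding start sites held it in 3.41%, and windows 500 bp to either side of the FLAG/FLAG summits in 2.44 to 3.37%. The matches thus sat at the summits themselves, and in each library the densest 20-bp bin was one of those beside the centre.

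**Figure D3:**
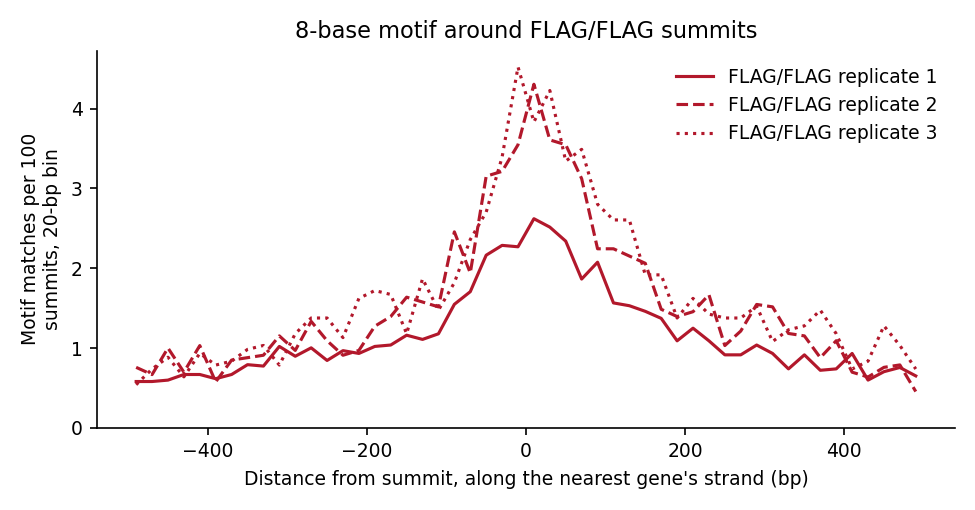
The x axis gives the distance from the FLAG/FLAG summit along the strand of the nearest gene and the y axis the number of matches to the 8-base motif CNCCTCAG, on either strand, per 100 summits in each 20-bp bin, with 1 line for each replicate. All 3 lines are highest beside the summit, at 2.62, 4.30 and 4.52 matches per 100 summits and bin.

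Summits with 1 or 2 copies of the motif scored higher than those with none. In FLAG/FLAG replicate 1 the median score was 13.8 for summits with no match, 21.3 with 1 and 37.9 with 2. In replicate 2 the medians were 12.6, 18.9 and 32.4, and in replicate 3 they were 13.5, 17.5 and 23.6. The order from 0 to 2 matches was the same in the 3 libraries. The few summits with 3 or more matches had a median of 35.2 (17 summits) in replicate 1 and 14.3 (13 summits) in replicate 2, below that of summits with 2, and of 76.4 (8 summits) in replicate 3, above it. Among the 571, 330 and 204 highest-scoring summits 26.1%, 34.2% and 28.4% held the motif, against 5.08%, 7.14% and 10.4% of the 2832, 1639 and 1011 lowest-scoring, so most summits at every level had no match to these letters. The rank correlation between score and number of matches was weak, at 0.190, 0.231 and 0.160. At summits with 1 match and 1 nearby gene, the match lay on the strand opposite to the gene in 61.8% (238 of 385), 59.9% (196 of 327) and 61.1% (127 of 208), beside 53.9% (740 of 1374) in windows at all start sites. Of the other letter strings searched on both strands, GCCNNNGGC was in 14.03 to 15.3% of FLAG/FLAG windows and in 8.60% of windows at all start sites, and GCGGGAA, of the kind E2F factors recognize, in 3.71 to 5.80% against 2.26%. The E-box CACGTG stood at 2.67 to 3.29% against 2.78%, CCAAT at 7.32 to 8.18% against 12.1%, and TGACGTCA at 0.485 to 0.668% against 1.08%. The windows compared were not matched for GC. The study names GCCNNNGGC as the AP-2 consensus and reports no enrichment of it at STRA8 sites, by its count against the peak score.

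Promoters with many copies stood out. In the 2 kb around a start site, 5 coding genes had 10 or more matches, and 4 of them, 4930447C04Rik, Dip2c, Iqsec1 and Sgpl1, met the rule for STRA8-bound genes, meaning a summit within 1 kb of a coding TSS in at least 2 of the 3 FLAG/FLAG libraries and in no wild-type library. That rule was met by 2812 of the 12286 genes detected in RNA, or 22.9%. Over all coding genes it was met by 2859 of 21851, or 13.1%. Both shares are the background for the counts that follow. The share rose with the number of matches, from 8.85% of 12365 genes with 0 to 15.6% with 1, 23.2% with 2, 34.1% with 3 to 4 and 74.2% of 31 genes with 5 to 9. Among genes detected in RNA the same series ran from 16.4% to 26.1%, 36.5%, 48.9% and 79.3%.

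At least 1 FLAG/FLAG library had a promoter summit at 4993 genes and at least 1 wild-type library at 109, of which 87 were shared. The libraries gave 4627, 3022 and 1816 genes with the tag and 108, 9 and 16 without it (means 3155 ± 1410 and 44.3 ± 55.2, SD, n = 3 each; exact permutation p = 0.1, adjusted 0.14), and the groups did not overlap. With the 109 wild-type genes left out, 1504 genes had a summit in all 3 FLAG/FLAG libraries, 1355 in 2 and 2047 in 1. Of those in 1, 1710 were found in replicate 1 alone, 276 in replicate 2 alone and 61 in replicate 3 alone. The total of 2859 rested on replicate 1 and replicate 2, since it was 1531 without replicate 1 and 1677 without replicate 2, each with a summit required in both remaining libraries.

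The highest promoter scores belonged to genes of varied roles. Iqsec1, which encodes an exchange factor for ARF GTPases, scored 336, 288 and 233. Dip2c scored 372, 244 and 215, and Sgpl1, the sphingosine-1-phosphate lyase, 250, 272 and 164. Pparg, a nuclear receptor best known from fat cells, scored 248, 170 and 207, and Cux1, a homeobox factor, 259, 154 and 224. The remaining genes of the leading 10 were 4930447C04Rik (the synaptonemal complex protein SIX6OS1), Gm4969, Pigp, Ttc3 and Eaf2, with mean scores of 168, 156, 157, 157 and 144. None had a wild-type summit. The lowest single score among the 10 was 97.1, and for Iqsec1 the summits of the 3 mice lay at −349, −362 and −360 bp from the TSS.

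Genes of the meiotic programme were among the STRA8-bound genes list by list. Stra8 itself scored 32.0 and 18.8 in replicates 1 and 3 and had no promoter summit in replicate 2. Gm4969, which encodes the STRA8 partner MEIOSIN, scored 186, 97.1 and 185. Meioc, whose product keeps germ cells in meiotic prophase, scored 134, 108 and 44.5, and its partner gene Ythdc2, an RNA helicase, 17.5, 17.5 and 0. The Ythdc2 summits lay 946 and 843 bp downstream of the TSS, near the edge of the 1 kb window. Of the 10 genes matched in the list of meiotic initiation and germ-cell RNA-binding regulators, 7 were STRA8-bound, among them also Dazl at 78.4, 35.4 and 20.2 and Rbm46 at 29.4, 40.6 and 21.9. The germline transcription factors and TFIID paralogs had 7 of 13, with Taf4b, a TFIID subunit of germ cells, at 50.6, 53.3 and 32.8 and Dmrtc2 at 63.8, 24.9 and 38.2.

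Structural genes of meiotic chromosomes were bound in most lists. The synaptonemal complex, the protein lattice between paired homologues, had 10 of 11 genes STRA8-bound, 8 of them in all 3 libraries. Sycp2, a lateral element protein, scored 79.6, 58.2 and 38.1, Syce1, of the central element, 58.9, 46.2 and 54.0, and Hormad2, an axis protein, 55.0, 40.3 and 40.4. Of the 4 meiotic cohesin genes, Smc1b (59.9, 28.6 and 54.3) and Stag3 (35.0, 23.5 and 22.5) were bound. Rec8, the meiotic kleisin subunit, had no promoter summit in any of the 6 libraries. The meiotic telomere attachment genes, which tie chromosome ends to the nuclear envelope, had 7 of 8 bound, with Terb1 at 105, 32.4 and 59.5, Spdya at 94.5, 91.3 and 49.3 and Majin at 51.5, 37.0 and 33.3.

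Most genes of recombination were bound too. Of 10 genes for double-strand break formation 8 were bound. Spo11, the transesterase that cuts the DNA, scored 13.0, 10.7 and 9.47, below Gm960 (TOP6BL, its partner) at 152, 112 and 64.6, Mei4 at 43.7, 36.2 and 36.5, and Prdm9, which places the breaks, at 28.1, 37.2 and 20.9. The strand exchange list had 8 of 12, all 8 in all 3 libraries, with Dmc1, the meiotic recombinase, at 44.1, 23.7 and 21.4, Hsf2bp at 72.3, 48.1 and 56.3, and Brca2 at 58.2, 20.8 and 22.1. Crossover and mismatch repair genes had 6 of 11, led by Msh5 (197, 103 and 82.0) and the helicase gene Hfm1 (160, 96.3 and 124). That none of the bound genes named in this and the foregoing paragraph had a wild-type promoter summit follows from the rule for bound genes.

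Of the cell cycle lists 31.6 to 53.3% of genes were bound, beside 13.1% of all coding genes and 22.9% of genes detected in RNA. The background share rose with TPM, an RNA level corrected for transcript length and library size. It was 31.5% of genes from 20 to 100 TPM and 38.8% from 100 TPM up. Replication firing at 37.0%, G1-S at 38.9% and G2-M at 31.6% lay near these shares, and origin licensing at 53.3% above them. The lists were not matched for level, and an excess over genes of equal level was not tested. Replication origin licensing had 8 of 15 genes bound, with Mcm5 at 19.9, 26.0 and 10.1 and Mcm6 at 29.7, 15.8 and 11.4, and the list of replication firing, forks and polymerases had 10 of 27, with the origin firing gene Ticrr at 104, 80.2 and 40.5 and the checkpoint mediator Clspn at 60.7, 39.4 and 41.7. Of the G1-S regulators 7 of 18 were bound, led by Ccne2 (cyclin E2) at 147, 52.0 and 132. The G2-M and mitosis list had 6 of 19, with Bub1 at 41.5, 24.5 and 18.6 and Top2a at 15.3, 17.0 and 12.7. In these 4 lists 4, 10, 4 and 4 genes had summits in all 3 libraries.

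Genes of somatic cells and of other germ cell stages were read against the 13.1% of all coding genes that were bound. Of genes detected in RNA 22.9% were bound. By RNA level the share ran from 0.659% under 1 TPM to 38.8% from 100 TPM up, and the lists were not matched for level. The rule was met by none of 12 genes of Sertoli cells, 8 of Leydig cells, 10 of vessels and peritubular cells and 9 of macrophages or other blood cells. Gata4 had a summit in replicate 1 alone (score 7.24) and Pdgfra in replicate 2 alone (9.04). The germ cell lists lay near the 13.1%. Of 12 genes of undifferentiated spermatogonia (8.33%) only Foxo1 was bound, at 8.41 and 10.03 in 2 libraries, and of 8 genes of differentiating spermatogonia (12.5%) only Stra8, whereas Kit had a single summit of 12.1 in replicate 3. Of 13 genes used later, in pachytene spermatocytes and spermatids (7.69%), Hspa2 alone was bound, at 15.8 and 20.8. Only 4 of these 13 were detected in RNA. Cytosolic ribosomal protein genes, which are highly transcribed in all cells, had 3 of 20 bound (15%; Rpl3, Rpl5 and Rpl7), none in all 3 libraries and none over a score of 18.2. Their summed level was 36328 to 36454 TPM in the high-STRA8 libraries, so the 38.8% of genes from 100 TPM up is the nearer background.

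**Figure D4:**
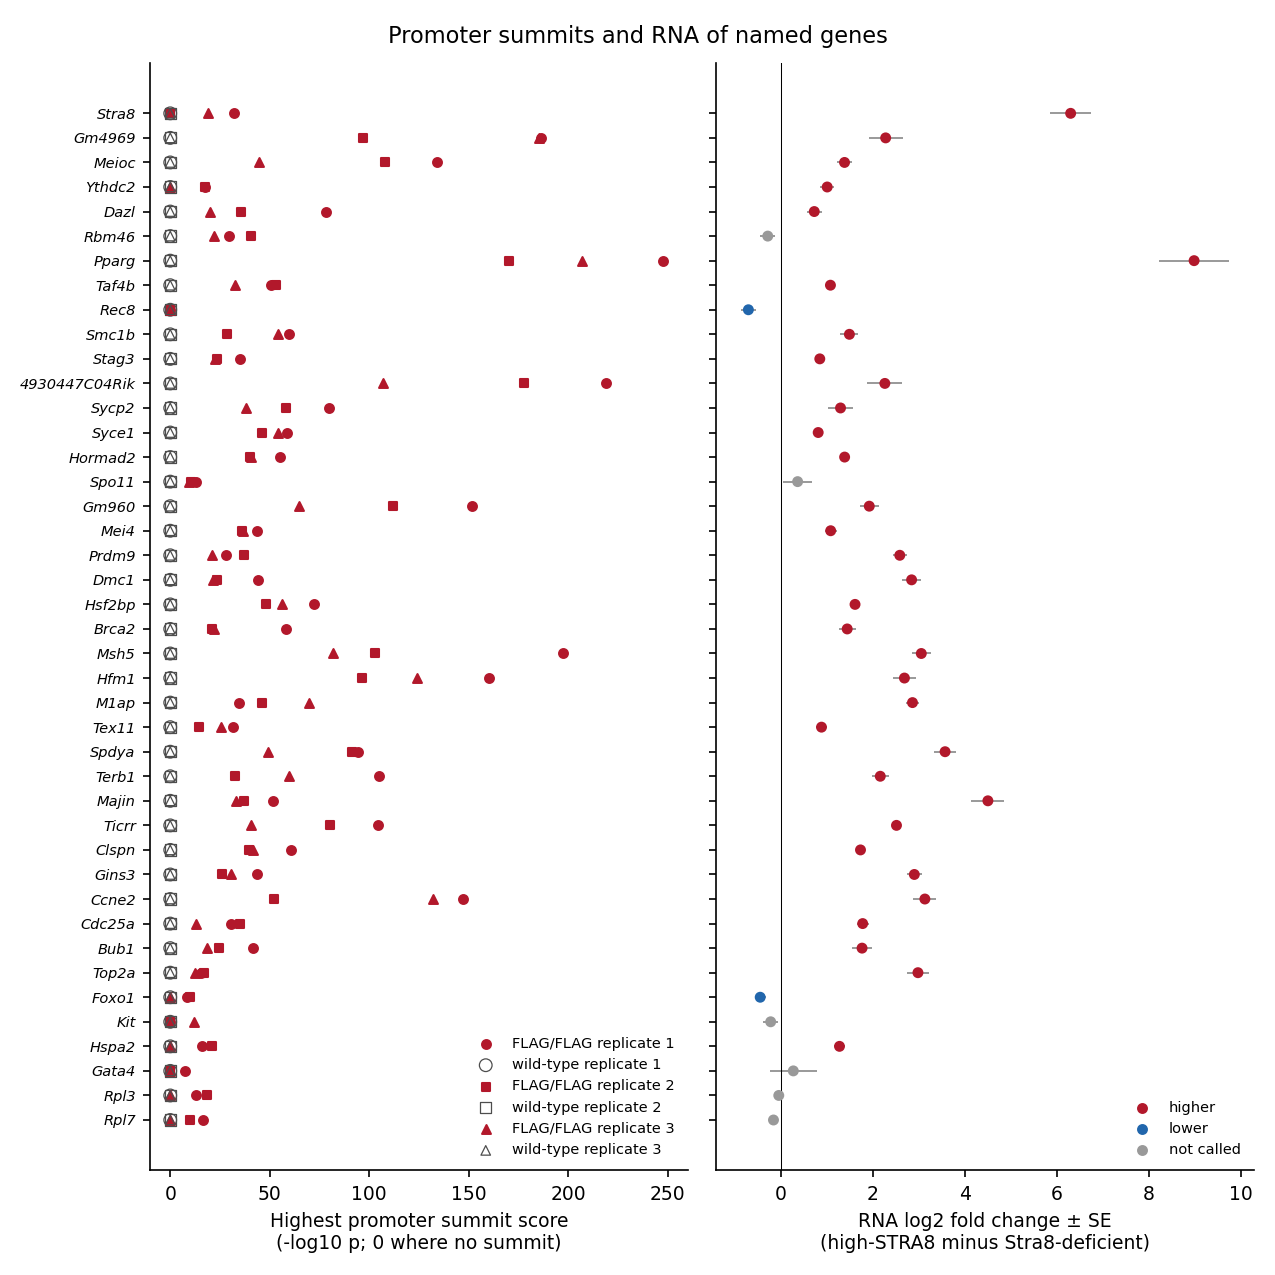
For 42 named genes the left panel gives the score of the highest promoter summit in each library on the x axis (−log10 p; 0 where a library has none; red filled, FLAG/FLAG; grey open, wild-type; the symbol marks the replicate), and the right panel the RNA log2 fold change between high-STRA8 and Stra8-deficient cells with its SE, coloured by the call. Every wild-type point lies at 0, which the rule for STRA8-bound genes requires of those that are bound. Pparg, Msh5, Gm4969 and 4930447C04Rik reach the highest scores shown, and Rec8, with no summit, lies left of 0 in the RNA panel.

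A bound promoter was more often one of a gene with much RNA. The 7 RNA libraries held 24122677 to 29212647 protein-coding counts. The p-values of the RNA comparison measure the spread between these libraries. Of genes under 1 TPM (a level corrected for transcript length and library size) on average over the 7 libraries, 0.659% were STRA8-bound, of those from 1 to 5 TPM 6.04%, from 5 to 20 TPM 16.6%, from 20 to 100 TPM 31.5% and from 100 TPM up 38.8%. Of the 12286 genes over 1 TPM in at least 1 library, 2812 (22.9%) were bound. On the X chromosome it was 42 of 548 such genes (7.66%), on the autosomes 2770 of 11719 (23.6%), with the lowest autosome, chromosome 10, at 18.3% and the highest, chromosome 1, at 28.4%. One of the 42, Tex11, which is needed for crossovers, scored 31.4, 14.3 and 25.8.

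The RNA of STRA8-bound genes was more often higher than lower where STRA8 was high. Stra8 itself checked the labels, at 15.0, 20.001 and 4.45 TPM in the Stra8-deficient, 258 and 209 in the low-STRA8 and 927 and 1102 in the high-STRA8 libraries, with no overlap. By edgeR's quasi-likelihood test with Benjamini-Hochberg adjustment (threshold 0.05), 1312 of the 2812 bound genes tested had more RNA with high STRA8 than in its absence, beside 18.7% of all 12343 genes tested. Only 155 bound genes were lower, beside 18.3% of all genes. As shares of the bound genes these are 46.7% and 5.51%, and the median log2 fold change was 0.34 against −0.02 over all genes. The block on replicate number, which the labels do not tie to a shared litter or day, gave 1078 and 91, and without high-STRA8 replicate 2 the counts were 863 and 44. Without high-STRA8 replicate 1 they were 930 and 56. The summed level of the 12 Sertoli cell genes was 608 to 899 TPM in the Stra8-deficient, 218 to 645 in the low-STRA8 and 787 to 881 in the high-STRA8 libraries, and that of the 9 macrophage and blood genes 7.87 to 25.3, 40.5 to 45.4 and 1.81 to 7.46 TPM. The part of such cells in the RNA differences was not tested.

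The share of higher genes followed the number of mice with a summit. With no wild-type summit, 8.13% of 7429 genes with no FLAG/FLAG summit were higher, 18.4% of 1972 with a summit in 1 library, 33.5% of 1324 with 2 and 58.3% of 1488 with all 3. The share of lower genes ran the other way, at 24.1%, 15.4%, 7.70% and 3.56%. It followed the score too, for in the 703 bound genes with the lowest mean score (4.30 to 9.53) 31.4% were higher and 9.53% lower, and in the 703 with the highest (24.1 to 286) 70.8% were higher and 0.853% lower. Bound genes with CNCCTCAG at a summit were higher in 62.7% of 654 and those without it in 41.8% of 2158. The motif had been derived at promoters of genes bound and higher in this same RNA-seq, so this split is not independent of the calls. Since bound genes had more RNA, the shares were also taken within levels. Between 20 and 100 TPM 48.0% of bound and 12.2% of other genes were higher, and between 1 and 5 TPM 35.7% and 8.03%.

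**Figure D5:**
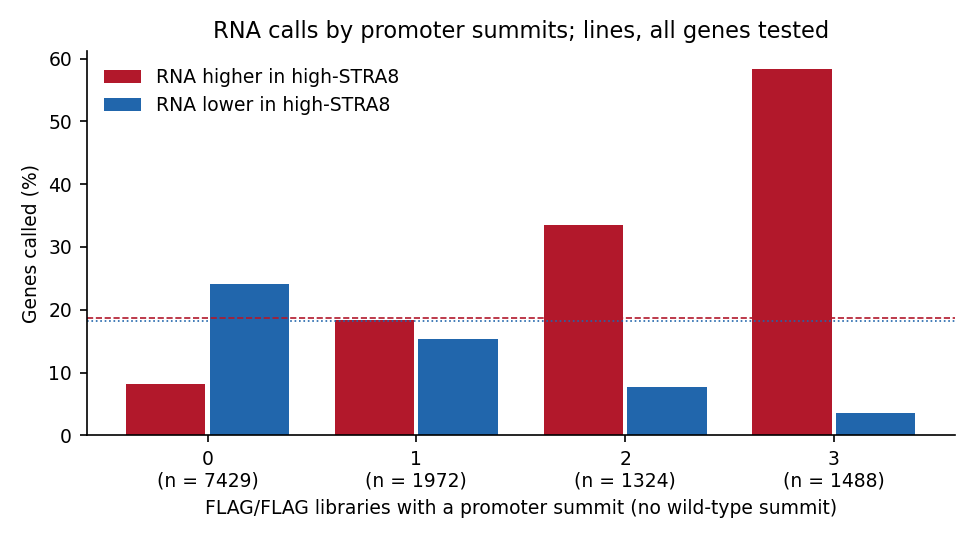
The x axis groups genes with no wild-type promoter summit by the number of FLAG/FLAG libraries with one, and the bars give the percent called higher (red) or lower (blue) with high STRA8 than in Stra8-deficient cells; the lines mark 18.7% (dashed, higher) and 18.3% (dotted, lower) of all genes tested. Red bars rise from 8.13% to 58.3% and blue bars fall from 24.1% to 3.56%.

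Bound genes of the meiotic lists were often higher, beside 46.7% of all bound genes. All 8 bound genes of strand exchange, all 7 of telomere attachment, all 6 of crossover formation and both bound cohesins were called higher, as were 8 of the 10 bound genes of the synaptonemal complex and 6 of the 8 of double-strand break formation, with none lower. Members of the same lists that were not bound were called higher too, namely 2 of 4 in strand exchange, 1 of 1 in telomere attachment, 3 of 5 in crossover formation, 1 of 2 cohesins, 0 of 1 in the synaptonemal complex and 1 of 2 in double-strand break formation, beside 10.4% of all genes tested that were not bound. Called lower were 1 of the 5 unbound genes in crossover formation and 1 of the 2 unbound cohesins. In the list of replication firing, forks and polymerases 9 of 10 bound and 14 of 17 unbound genes were higher. The other cell cycle lists differed more between bound and unbound genes. Higher were 7 of 8 bound and 3 of 7 unbound genes of origin licensing, and 5 of 7 and 2 of 10 G1-S regulators. For G2-M and mitosis it was 6 of 6 and 2 of 13. Lower were 1 bound and 1 unbound G1-S regulator and 7 unbound genes of G2-M and mitosis. Among the largest increases of bound genes with at least 5 TPM were Pparg, Rad51ap2, Stra8 and Majin. The groups were defined by Stra8 genotype and STRA8 level, so the place of Stra8 there is set by the design. Pparg stood at 0.0688 TPM on average in the deficient and 32.7 TPM in the high-STRA8 libraries (log2 fold change 8.99 ± 0.77 SE, adjusted p = 0.000105, edgeR). Majin rose from 3.97 to 87.5 TPM (log2 fold change 4.50 ± 0.36 SE, adjusted p = 8.09e-05, edgeR). Gm4969 rose from 205 to 940 TPM and Dmc1 from 39.0 to 267 TPM.

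Some genes parted from this pattern. Spo11 was bound in all 3 libraries and its RNA stood at 1.78 TPM in the deficient and 2.18 TPM in the high-STRA8 libraries (log2 fold change 0.37 ± 0.32 SE, adjusted p = 0.406, edgeR). Rbm46, also bound in all 3, stood at 201 and 158 TPM in the same groups and was not called (−0.28 ± 0.16, adjusted p = 0.204, edgeR). Rec8, with no summit, was lower, at 235, 239 and 158 TPM in the deficient and 113 and 131 in the high-STRA8 libraries (fell by 0.70 on the log2 scale, SE 0.16, adjusted p = 0.0103, edgeR), and this call was lost without either high-STRA8 replicate. The largest decreases among bound genes, Tnrc18, Kctd15, Fam120c, Cstf3 and Ppcs, ran from −2.13 to −1.40, and each of the 5 had summits in only 2 libraries, with scores of 17.9 or less. The 3 bound ribosomal protein genes were not called, at −0.04 (Rpl3), −0.16 (Rpl7) and −0.20 (Rpl5).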

How the data were processed

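Per the methods of the study, the authors trimmed the ChIP reads, aligned them to mm10 with Bowtie 1.2.0, called peaks per library against its own input with MACS2 2.1.1.20160309 (p 1e-05, as the peak names also show) and removed blacklisted peaks; the deposited score is a −log10 p-value. RNA values were deposited by the authors as kallisto 0.43.0 estimated counts and as TPM per transcript.

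Summits were assigned to coding transcripts of the basic set of GENCODE release M21 (GRCm38) within 1 kb, a newer annotation than the authors used. Estimated counts were summed by coding gene and rounded, genes over 1 TPM in at least 1 library were kept, and edgeR 4.0.16 was fitted (TMM, robust quasi-likelihood, all 7 libraries), after a test on simulated data; DESeq2 1.42.0 was an alternative. TPM were rescaled to coding genes. Library measures were compared with exact permutation tests (scipy) of 3 against 3, and 20 gene lists of 248 genes were used, 2 of which matched no annotated coding gene. Of each list the up to 4 genes with the highest mean score were named, with 8 genes fixed by name, the 10 highest-scoring promoters, the 10 highest wild-type sites, the 5 highest distal sites and the 5 largest RNA changes in each direction (at least 5 TPM); 1 gene that this rule names is not reported here. The members, lists and tests were chosen with earlier results of these data known. Each library is 1 mouse; same-numbered ChIP libraries were processed in parallel and so are pairs. Read depth is not in the summit files.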

Additional observations from a re-analysis of the deposited data

How the results depend on the processing

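The median summit score had no stable direction: FLAG/FLAG minus wild-type was 0.376 on autosomes, X and Y only (8 summits of wild-type replicate 2 are mitochondrial) and −2.26 to 0.722 with each pair left out, reversed without replicate 2 (0.187) or 3 (0.722). The other 6 measures per library kept their direction in the alternatives run, and no p fell below 0.05, which 3 against 3 cannot reach. As replicate block on same-numbered libraries, the exact sign-flip test gave p = 0.25, its smallest, for these 6 and 1 for the median score, with mean differences such as 3338 summits. The difference in shared summits moved most, from 4.23 points within 50 bp to 25.5 within 250 bp, and the motif difference from 5.09 in 50 bp to 15.4 in 200 bp. Left-out pairs gave 2562.5 to 4071.5 summits, 65.8 to 69.5 points at promoters, 2406.5 to 3766 genes, 9.84 to 11.7 points with the motif, 10.2 to 26.5 points shared and 20.5 to 23.1 points of GC.

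STRA8-bound genes numbered 1504 with a summit in all 3 libraries, 4906 in at least 1, and 1531 to 2659 with each FLAG/FLAG replicate left out. Leaving out wild-type replicate 1, chosen after seeing the data, gave 2908. Higher bound genes numbered 863 to 1332 with each RNA library left out and 868 with binding in all 3. Lower bound genes numbered 44 to 163 with each library left out, 53 with binding in all 3 and 91 with the replicate block, in a fit whose numbers did not pair the libraries (r of deviations −0.014 and 0.011). DESeq2 gave 1375 higher and 182 lower. Of 65 called named genes none changed sign under the RNA alternatives. Birc5, Cenpf, Dazl, Foxo1, Pdgfra, Rec8 and Sycp2 lost their call without high-STRA8 replicate 2.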

Other observations

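Some summits with a high score, no wild-type summit and a place in all 3 FLAG/FLAG libraries lay over 1 kb from a coding start site; these sites were picked after their values had been seen. The highest was in an intron of Tsc22d3 on the X chromosome, 1198 bp downstream of the nearest coding TSS, with scores of 116, 60.3 and 58.9. A site at −53414 bp from its nearest coding start, that of Tex15, scored 91.2, 63.4 and 52.0, and one 27039 bp downstream of its nearest, that of Leo1, scored 81.1, 65.1 and 87.3. Both lay within 1 kb of another annotated start, noncoding or not of a basic coding transcript. Among the sites shared by all 3 FLAG/FLAG libraries and absent from the wild type, 841 of 949 were at coding promoters.

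The 47 STRA8-bound genes with no RNA library over 1 TPM are not covered by the RNA comparison. Of the 2298 genes called higher that have a coding start site in the annotation, 1312 (57.1%) were bound and 72.9% had a summit in at least 1 FLAG/FLAG library and no wild-type library. Of the 2253 called lower these shares were 6.88% and 20.3%.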
